A study of Mus musculus with 2 samples.

Results

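The inflammation-linked miRNAs described here are mmu-miR-21-5p, mmu-miR-146a-5p, mmu-miR-146b-5p, mmu-miR-155-5p, mmu-miR-132-3p, mmu-miR-212-3p and mmu-miR-147-3p (the species prefix is left out for most of the text), measured in mouse lung after monocrotaline (MCT) and in untreated lung. They were taken by name from the array, as miRNAs known to be induced by NF-κB, AP-1, STAT3 or CREB signalling, and make up 7 of its 1141 mouse miRNA probes. MCT is a plant alkaloid whose metabolites injure lung vessels, and it is used in rodents as a model of pulmonary arterial hypertension. The study had 1 array of lungs from MCT-treated mice and 1 of lungs from untreated mice, both of wild-type genotype by their labels. The treated mice were 14 weeks old, with MCT given over 30 days. The dose, the route, the number of mice behind each RNA sample and the age of the untreated mice are not given in the sources used here, and whether the treated mice developed hypertension was not among the measurements. With 1 array per group no difference between the groups could be tested, and no p-value is given. Values after ± are standard deviations (SD) over the 3 repeat spots of a probe, and for a ratio the SDs of both arrays combined. They cover the spread within an array and not that between mice.

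These miRNAs belong to the feedback circuits of inflammation. Signals from Toll-like and cytokine receptors switch on transcription factors, which in turn transcribe the miRNA genes. miR-146a and miR-146b then damp the same pathway through its adaptors Traf6 and Irak1, whereas miR-155 lifts brakes on it by repressing Socs1 and the phosphatase Inpp5d. miR-21, a target of STAT3 and AP-1, represses Pdcd4 and is known for its part in fibrosis and vessel remodelling. miR-132 and miR-212 come from 1 locus that CREB drives, and miR-147 is induced in mouse macrophages by Toll-like receptor ligands.

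Sequences are shown for the 6 members whose array target equalled a mature miRNA in RefSeq (GRCm38.p6), because the members pair up by sequence and the results turn on those pairs. They are written 5′ to 3′ with the seed, bases 2 to 8, in capitals.
miR-21-5p: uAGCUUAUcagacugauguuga
miR-146a-5p: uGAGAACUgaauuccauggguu
miR-146b-5p: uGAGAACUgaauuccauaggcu
miR-155-5p: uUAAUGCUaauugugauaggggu
miR-132-3p: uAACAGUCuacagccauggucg
miR-212-3p: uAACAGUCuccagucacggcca
The 7 members held 5 different seeds. miR-146a-5p and miR-146b-5p share a seed and 20 of 22 bases, and with positions counted from the 5′ end of miR-146a-5p they differ by G18A and U21C. miR-132-3p and miR-212-3p share a seed and 17 of 22 bases. The only other array probe with a member's seed was miR-590-5p, which has that of miR-21-5p, and no further probe lay within 3 substitutions of a member.

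In GRCm38.p6 the mature miR-21-5p lies at chr11:86584120-86584141 on the minus strand, inside the bounds of the protein-coding gene Vmp1. miR-146a-5p lies at chr11:43374435-43374456 on the minus strand and miR-146b-5p at chr19:46342790-46342811 on the plus strand, which is inside the long noncoding gene Gm36493. miR-155-5p lies at chr16:84714143-84714165 on the plus strand inside its host gene Mir155hg. miR-212-3p (chr11:75173443-75173464) and miR-132-3p (chr11:75173723-75173744) lie on the plus strand, with 203 bases between their hairpins.

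The MCT array was brighter as a whole. Its 257 empty spots had a median scanner intensity of 253, against 101 on the untreated array, and the limits for detection, the 95th percentile of the empty spots, were 284 on the MCT array and 116 on the untreated array. A miRNA was detected when at least 2 of its 3 spots exceeded the limit, which held for 316 miRNAs on the MCT array and 403 on the untreated array, 409 on either. This limit was stricter on the MCT array, where the median of all miRNA spots, 226, lay below the empty-spot median. On the untreated array the median of all miRNA spots was 105, above the empty-spot median. The counts of the 2 arrays, and detection on 1 array only, are therefore not read as differences in level. Because the MCT array was brighter, scanner intensities are given as data, and ratios are taken from background-corrected, quantile-normalized log2 intensities, in which both arrays have the same distribution. Lung and vessel miRNAs were present as labelled: the endothelial miR-126-3p was detected on both arrays, and the 6 listed epithelial miRNAs (the miR-200 family and miR-203-3p) were detected on the MCT array, 5 of them on the untreated array too.

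miR-146b-5p was the 1 inflammation-linked miRNA past 2-fold, at 2.07-fold higher in MCT-treated lung, while its near-identical relative miR-146a-5p differed by less than its spots did. miR-132-3p, miR-21-5p and miR-155-5p had smaller ratios above 1 with spots that did not overlap between the arrays, miR-147-3p lay at the edge of detection, and miR-212-3p was not detected. A miRNA counted as higher or lower when it was detected on either array, its ratio was at least 2-fold and its spots did not overlap. By this rule 1 of the 6 detected members was higher and 0 were lower, where 4.16% of the 409 detected miRNAs were higher and 2.20% lower. The median log2 ratio of the 6 was 0.22 ± 0.073 (SD of the medians over the repeat spots), and that of all detected miRNAs was -0.044. All 6 had a log2 ratio above 0 in the main setting, as did 43.8% of the detected miRNAs. The spots of 4 lay wholly above those of the untreated array, as for 33.0% of the detected miRNAs. With the trend of ratios over GC content removed, miR-146a-5p had -0.11 and miR-155-5p -0.010, so the shared sign depended on the processing.

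mmu-miR-146b-5p had scanner intensities of 8711, 9177 and 8866 on the MCT array and of 1920.4, 2076 and 2002 on the untreated array. Every MCT spot was above every untreated spot, by more than the spread among repeats, but on the brighter MCT array this also held for the undetected miR-212-3p. The spots of miR-146b-5p did not overlap after normalization either. On the normalized scale its log2 level was 12.55 ± 0.040 in MCT-treated lung and 11.50 ± 0.060 in untreated lung, a log2 ratio of 1.05 ± 0.072. That ratio ranked 13 of the 409 detected miRNAs, of which 3.18% had one as high or higher. The value stood just past the threshold, and with the trend of ratios over GC content removed it was 0.91. Under that setting 0 members were called, where 1.96% of the detected miRNAs were higher and 1.47% lower.

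mmu-miR-146a-5p, the more studied member of the pair, had intensities of 14065, 14932 and 14518 on the MCT array and of 7779, 8258 and 8186 on the untreated array. These scanner values did not overlap, but without normalization the log2 ratio of the probe was 0.84 where the median of all detected miRNAs was 0.70. After normalization the log2 level was 13.41 ± 0.039 in MCT-treated lung and 13.38 ± 0.048 in untreated lung, with overlapping spots and a log2 ratio of 0.028 ± 0.062. The ratio of miR-146b-5p therefore exceeded that of miR-146a-5p by 1.02 ± 0.095 on the log2 scale. This gap lay between 1.01 and 1.31 in all 19 processing alternatives, but many of these could not move it. Shifting each array by a single value leaves the gap as it was without normalization, at 1.31. Removing the GC trend cannot change it either, because both targets have a GC content of 40.9%, and the detection limits do not enter a ratio. Because the targets differ at 2 bases, part of each probe's signal may come from the other miRNA, which was not tested.

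**Figure D1:**
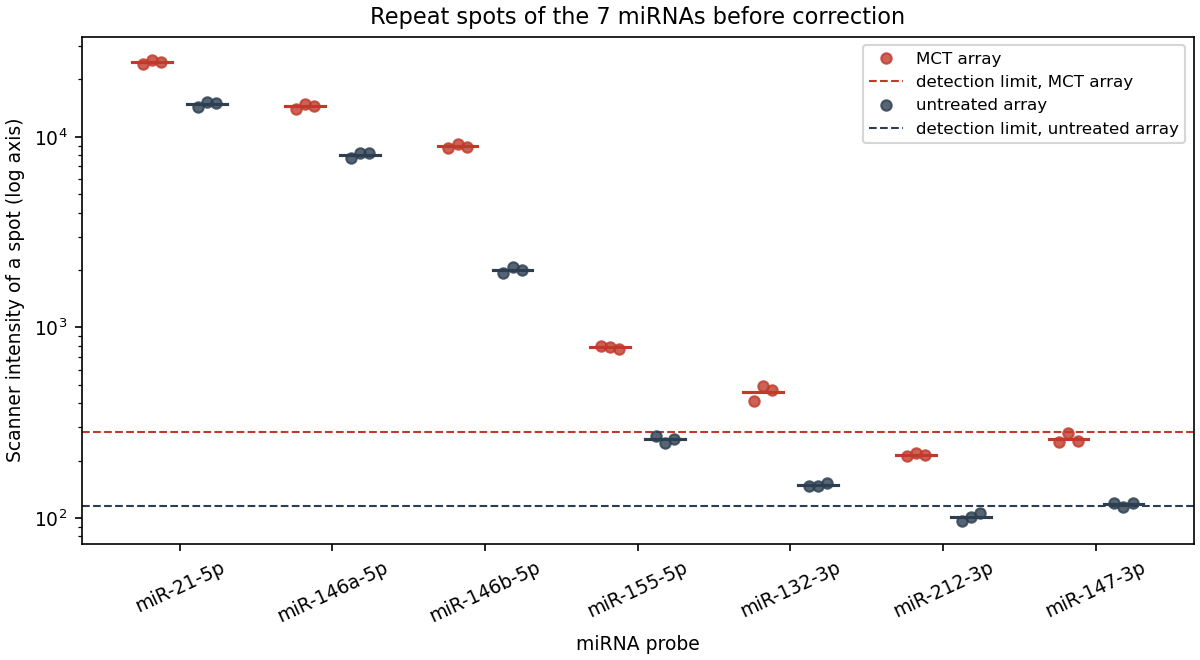
Scanner intensity of the 3 repeat spots (points, log axis) of each inflammation-linked miRNA on the MCT array (red, left) and the untreated array (dark, right), with the mean as a short line and each array's limit of detection dashed. miR-146b-5p has the widest gap between the arrays, miR-212-3p lies under the limit on both, and miR-147-3p lies under the limit on the MCT array and beside it on the untreated array.

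mmu-miR-21-5p had intensities of 24095, 25376 and 24797 on the MCT array and of 14412, 15302 and 15080 on the untreated array. Its normalized log2 level was 14.36 ± 0.072 in MCT-treated lung and 14.12 ± 0.059 in untreated lung. The log2 ratio was 0.23 ± 0.093, or 1.18-fold, and the spots did not overlap, yet 25.7% of the detected miRNAs had a ratio at least as high. The first MCT spot was also uneven within itself, with a pixel SD of 693 beside 169 and 112 in the others. Without that spot position the log2 ratio was 0.23, so it did not rest on the uneven spot. With the GC trend removed the ratio was 0.041.

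mmu-miR-155-5p, from the Mir155hg transcript of activated lymphocytes and macrophages, had intensities of 798, 789 and 769 on the MCT array and of 269, 248 and 260.1 on the untreated array. The scanner values were 3.03-fold apart, a larger step than that of miR-21-5p (1.66-fold) or miR-146a-5p (1.80-fold). The steps of miR-132-3p (3.08-fold) and miR-146b-5p (4.46-fold) were larger still. On this scale the undetected miR-212-3p was also 2.12-fold apart, and the empty spots were brighter on the MCT array. The step of a dim probe is therefore not read as a difference in level. Normalization brought the log2 levels of miR-155-5p to 8.75 ± 0.052 in MCT-treated lung and 8.54 ± 0.079 in untreated lung. Its log2 ratio was 0.21 ± 0.095, with no overlap of the spots. This ratio depended on how the arrays were scaled. Relative to the median of all detected miRNAs it was 0.25 under quantile normalization, 0.76 when the arrays were scaled by a single factor, and 0.033 with the GC trend removed. Not taken relative to that median, the log2 ratio was -0.010 with the GC trend removed. The miR-155-5p target has a GC content of 34.8%, the lowest of the 7.

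mmu-miR-132-3p had intensities of 411, 495 and 469 on the MCT array and of 148, 146.5 and 152 on the untreated array, above the limit in every spot. Its log2 level was 7.87 ± 0.15 in MCT-treated lung and 7.32 ± 0.054 in untreated lung. The log2 ratio of 0.55 ± 0.16, or 1.47-fold, was the second largest of the members in the main setting, with non-overlapping spots, and 12.0% of the detected miRNAs reached it. The first MCT spot was the low one, and the ratio was 0.62 without that position and 0.47 without the second. With a local background for each spot the ratio was 0.79, and without background correction it was 0.41. The mean intensity of the probe was 1.81 times the empty-spot median on the MCT array and 1.48 times on the untreated array.

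mmu-miR-212-3p, transcribed beside miR-132 and sharing its seed, was not above the empty spots on either array. Its intensities were 210.25, 219.9 and 213 on the MCT array, under the empty-spot median of 253, and 96.8, 101 and 106 on the untreated array. It has no ratio that can be read as a difference in level (the processed values differed by -0.050 ± 0.12). The 2 products of this locus therefore cannot be compared for their response, and a lower level of miR-212-3p than the array resolves is possible in both samples.

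mmu-miR-147-3p had intensities of 251, 279 and 253 on the MCT array, all under its limit of 284, and of 119, 115 and 120.5 on the untreated array, where 2 spots passed the limit of 116. It was thus counted as detected in untreated lung only, by a margin of a few units of intensity. The spots overlapped after normalization, and the log2 ratio was 0.10 ± 0.14. With a local background the ratio was 0.87, and when each array was centred on its 75th percentile over all miRNA spots it was -0.15, so no direction can be given.

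**Figure D2:**
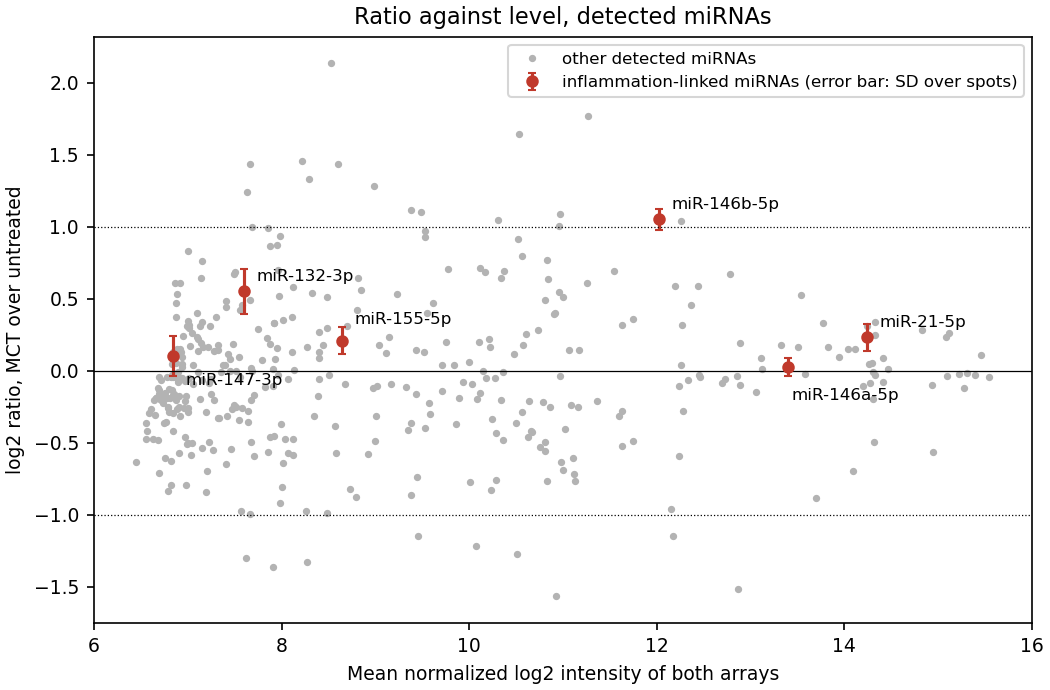
Log2 ratio of MCT over untreated lung (y axis) against the mean normalized log2 intensity (x axis) for the 409 detected miRNAs (grey), with the 6 detected inflammation-linked miRNAs in red and error bars for the SD over spots. miR-146b-5p, at 1.05, lies just past the dotted line of 2-fold, and the other 5 lie between 0.028 and 0.55.

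The opposite arm of each member's hairpin was also on the array: miR-21-3p, miR-146a-3p, miR-146b-3p, miR-155-3p, miR-132-5p, miR-212-5p and miR-147-5p. None of these 7 was detected on either array. In particular miR-146b-3p had a mean scanner intensity of 222 on the MCT array and 103 on the untreated array, close to the empty spots, so the difference of miR-146b-5p had no second probe of its hairpin to be set beside. miR-590-5p, the one seed relative of miR-21-5p, was not detected either.

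The size of each ratio depended on the scaling between the arrays, and over the alternatives the ratio of miR-146b-5p ranked between 9 and 32 among the detected miRNAs. Without normalization the median log2 ratio of all detected miRNAs was 0.75 higher than under quantile normalization, and 3 members passed 2-fold: miR-146b-5p at 2.15, miR-155-5p at 1.46 and miR-132-3p at 1.35 (log2). Under that setting 34.7% of all detected miRNAs were called higher. Scaled by the 5S ribosomal RNA probes, the same 3 were called, at 1.93, 1.24 and 1.13, and 23.7% of the detected miRNAs with them. Centring on the median of all miRNA spots gave the same count of members and the same share. At the other end, centring on the median of the miRNAs detected on both arrays moved the median of all detected miRNAs by -0.67. miR-146b-5p then had 0.73 and was not called, miR-155-5p had 0.039, and miR-132-3p (-0.069), miR-146a-5p (-0.59) and miR-21-5p (-0.70) were below 0. That setting called 1.47% of the detected miRNAs higher and 32.3% lower.

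Taken relative to the median of all detected miRNAs under the same setting, miR-146b-5p lay between 0.96 and 1.45 above it in the 19 alternatives, miR-132-3p between 0.44 and 0.82, miR-155-5p between 0.033 and 0.76 and miR-21-5p between 0.021 and 0.29. miR-146a-5p lay between -0.068 and 0.34, its lowest value being that with the GC trend removed. For these 5 miRNAs, miR-146a-5p alone changed sides of that median among the alternatives run. The alternatives that shift each array by a single value give the same relative values as no normalization by construction.

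**Figure D3:**
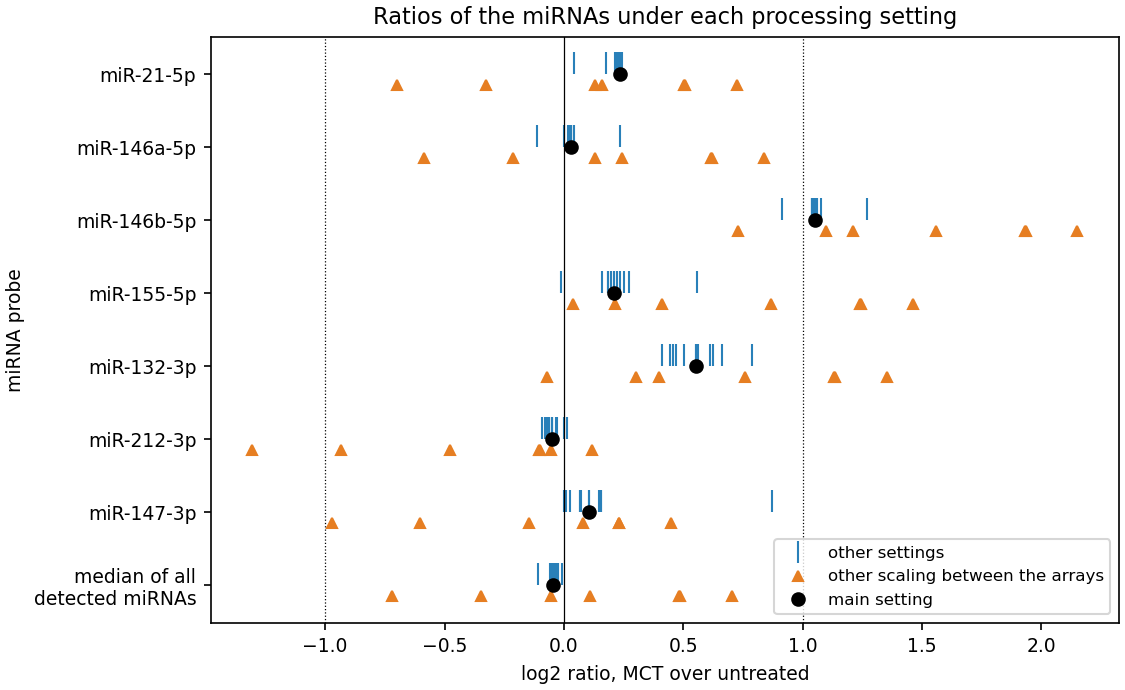
Log2 ratio of MCT over untreated lung (x axis) of each inflammation-linked miRNA, and the median of all detected miRNAs, under the main setting (black), under other scalings between the arrays (orange) and under the other alternatives (blue). Over the scalings miR-146b-5p lies between 0.73 and 2.15, and the median of all detected miRNAs between -0.72 and 0.70.

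The authors' processed values, from their deposited table of intensities on a linear scale, gave 6318 in MCT-treated and 2591 in untreated lung for miR-146b-5p, a 2.44-fold difference. For miR-155-5p the authors' deposited table gave 379.5 in MCT-treated and 242 in untreated lung, and for miR-132-3p 148 in MCT-treated and 89.7 in untreated lung. For miR-146a-5p it gave 11502 in MCT-treated and 9759 in untreated lung, and for miR-21-5p 20267 in MCT-treated and 17952 in untreated lung. In log2 ratios with a pseudocount of 50 these values gave 1.27 for miR-146b-5p, 0.56 for miR-155-5p, 0.50 for miR-132-3p, 0.24 for miR-146a-5p and 0.17 for miR-21-5p. The deposited table itself had a 1.57-fold difference for miR-155-5p and a 1.65-fold one for miR-132-3p, and the pseudocount turned their order, so the order of these 2 is not settled by the arrays. The difference between their ratios, 0.34 ± 0.18 in the main setting, ran from -0.11 to 0.52 over the alternatives.

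Other miRNAs of Toll-like receptor, NF-κB and STAT3 signalling were set beside the members. Of 14 listed, 10 were detected, 1 was higher and 0 were lower (4.16% and 2.20% of all detected miRNAs), with a median log2 ratio of 0.29. The higher one was miR-221-3p at 1.04 ± 1.54, whose SD over spots exceeded the ratio itself. It was 0.14 without the third spot position and 0.20 by the median of the spots, which ended the call, and its cluster partner miR-222-3p had -0.067 ± 0.057. miR-181b-5p, a target of STAT3 like miR-21, had 0.55 ± 0.027, miR-125a-5p 0.53 ± 0.30 and miR-31-5p 0.40 ± 0.040. miR-9-5p, miR-301a-3p and both arms of miR-511, a miRNA of the macrophage gene Mrc1, were not detected. Below detection, the processed log2 ratios were 0.52 for miR-9-5p, -0.14 for miR-301a-3p, and 0.52 (3p) and 0.62 (5p) for miR-511. The mean intensities of miR-511 on the MCT array, 277 (3p) and 281 (5p), lay just under the limit of 284.

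Since miR-146b, miR-155 and miR-147 are also made by immune cells, markers of white blood cells were read on the same arrays. Of 7 listed, 4 were detected on the MCT array and 5 on the untreated array, and the summed normalized linear intensity of the 5 was 15133 on the MCT array and 13765.5 on the untreated array. This sum was mostly miR-150-5p, at a log2 level of 13.59 on the MCT array and 13.42 on the untreated array, so it says little about the others. miR-342-3p, of lymphocytes and myeloid cells, was higher at 1.05 ± 0.11, and miR-223-3p, of neutrophils and macrophages, was lower at -1.21 ± 0.21. Neither call held in all alternatives. miR-342-3p had 0.994 to 0.999 with an offset of 100, with cyclic loess, with the GC trend removed and without the first spot position, 0.81 with the authors' values and 0.76 when centred on the median of the miRNAs detected on both arrays. miR-342-5p, the other arm of miR-342, was detected on both arrays and had 0.12 ± 0.18, with overlapping spots. miR-223-3p had -0.036 without normalization, with mean scanner intensities of 1262 on the MCT array and 1194 on the untreated array. It had -0.25 when scaled by the 5S probes or centred on the median of all miRNA spots, and -0.63 when centred on their 75th percentile. Its other arm, miR-223-5p, had -0.042 ± 0.18 and was detected on the untreated array only. miR-150-5p, of mature lymphocytes, had 0.17 ± 0.077. Both arms of miR-142, which is found throughout blood cells, were not detected, with 1 spot of miR-142-5p over the limit on the MCT array. Their processed log2 ratios, taken below detection, were 0.81 ± 0.44 (5p) and 0.45 ± 0.29 (3p), with spots that did not overlap. With a local background these ratios were 1.03 (5p) and 0 (3p), and without background correction 0.48 (5p) and 0.25 (3p). They are not read as differences in level. On the MCT array the mean of miR-142-5p, 270, exceeded a lower limit of 230.5 set by the dimmest miRNA spots. That of miR-142-3p, 218, did not. The part of blood cells in the ratio of miR-146b-5p was not tested. In bulk lung, fewer cells of a type and less RNA per cell cannot be told apart.

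Among markers of other lung cells, 0 were past 2-fold in the main setting. Of the 6 epithelial miRNAs 4 had a ratio above 0, among them miR-429-3p at 0.77 ± 0.017 and miR-200a-3p at 0.51 ± 0.089, while miR-200c-3p had -0.039 ± 0.060 and miR-203-3p -0.49 ± 0.098. miR-141-3p, at 0.61 ± 0.14, was detected on the MCT array only and so entered through the array where it is higher, and its ratio was 0.39 without background correction and 1.31 with a local background. The median was 0.49 with it and 0.46 over the 5 detected on both arrays. The 2 arms of the endothelial miR-126 had -0.12 ± 0.12 (3p) and -0.29 ± 0.18 (5p), and the 5p arm was detected on the untreated array only, where it is higher. The 3 smooth muscle miRNAs had a median of 0.33, with miR-145-3p at 0.70 ± 0.089, miR-143-3p at 0.33 ± 0.41 and miR-145-5p at 0.28 ± 0.053. Of the red blood cell and heart muscle markers with a probe, miR-451 had -0.038 ± 0.035 and miR-1a-3p -0.086 ± 0.076, and the other 4 were not detected.

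**Figure D4:**
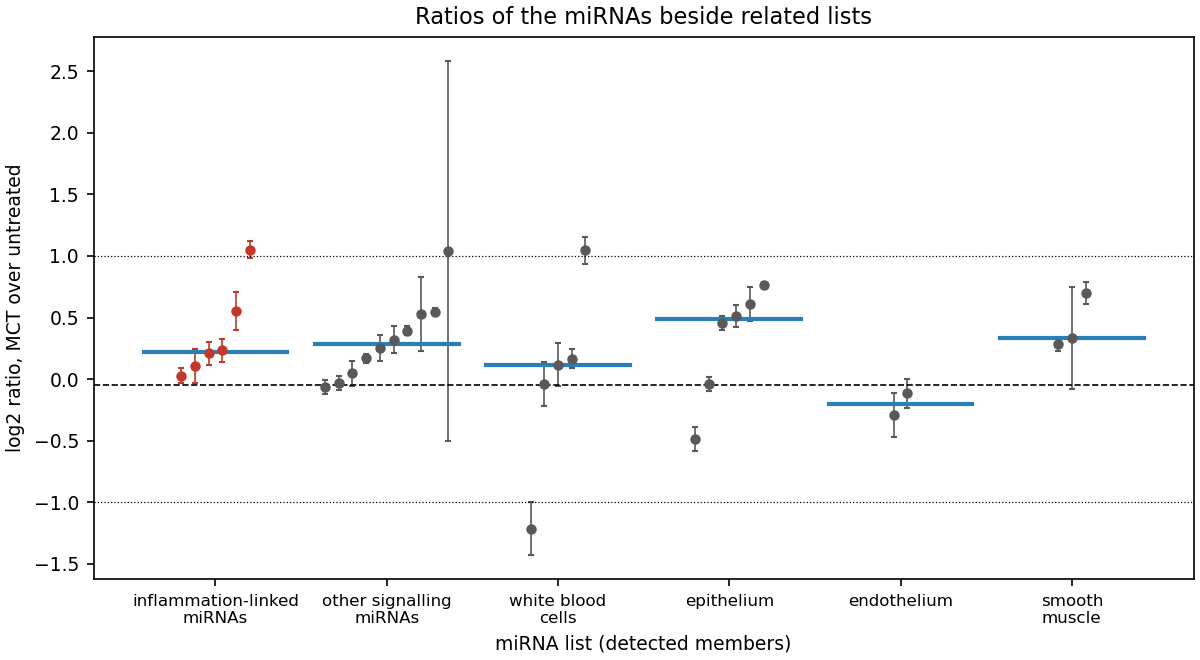
For each list, the log2 ratios (MCT over untreated) of its detected members (points, with the SD over spots), the list's median (blue line), the median of all detected miRNAs (dashed) and 2-fold (dotted). Points include miRNAs detected on 1 array only. Over those detected on both, the inflammation-linked miRNAs (red) have a median of 0.23, other signalling miRNAs 0.29, white blood cells 0.14, epithelium 0.46 and smooth muscle 0.33, and the 1 endothelial miRNA is at -0.12.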

How the data were processed

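Total RNA of lung, 2 µg per sample, was hybridised to single-colour (Cy3) microfluidic arrays by a service provider, per the labels' protocols. The deposited scanner tables hold the median pixel intensity and its standard deviation per spot on a linear scale, per the file headers, and from the empty spots they are not background-subtracted. The authors' deposited series table holds processed intensity per probe, and the sources used here do not say how it was made. Groups were taken from the treatment labels, 1 array each, which limits the precision.

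Spot intensities were corrected with normexp (offset 50) in limma 3.58.1 under R 4.3.3, control spots were left out, the log2 values were quantile normalized over all miRNA spots, and repeat spots were averaged, 3 per miRNA. The steps were tested on simulated arrays, where the criterion first set for the recovery of the largest decreases was narrowly missed and was relaxed after that was seen. Alternatives covered background, offset, scaling, GC trend, spots, detection, threshold and the authors' values, and 2 scalings over miRNAs detected on both arrays were added after the data were seen. The members, lists and rules were chosen with earlier results of these data known. All members, their other arms and probes related by sequence were named, plus up to 4 (signalling) or 3 (markers) detected list members with the largest ratios and any past 2-fold. The epithelial miR-200c-3p and miR-203-3p, miR-222-3p, miR-223-5p and miR-342-5p were named after their values were seen. miR-486-5p matched no probe by name or sequence. Python 3.11.15 with numpy 2.4.6, pandas 2.3.3, statsmodels 0.14.6 and matplotlib 3.10.9 was used.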

Additional observations from a re-analysis of the deposited data

How the results depend on the processing

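The count of 1 higher member became 3 without normalization, when centred on the median of all miRNA spots and when scaled by the 5S probes, settings that called 34.7%, 23.7% and 23.7% of all detected miRNAs higher. It became 0 with the GC trend removed and when centred on the median of the miRNAs detected on both arrays. The count of 0 lower members was 0 in all 20 alternatives. The median log2 ratio of the detected members, 0.22, was 1.09 without normalization, 0.88 centred on the median of all miRNA spots, 0.87 scaled by the 5S probes, 0.53 with a local background, 0.50 centred on the 75th percentile of all miRNA spots, 0.37 with the authors' values, 0.043 and -0.33 centred on the 75th percentile and the median of the miRNAs detected on both arrays, and 0.025 with the GC trend removed. The cause was not tested. No called ratio changed sign: miR-146b-5p was above 0 in all 19 alternatives that give ratios and at least 2-fold in 17 of them. No paired analysis was possible because each group has 1 array, so no replicate could be left out either. Signal over background limits miR-212-3p, miR-147-3p and, in part, miR-132-3p.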

Other observations

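The repeat spots of a probe lie at 3 column positions. Over the 409 detected miRNAs the first position was the lowest of the 3 for 37.7% on the MCT array and for 63.3% on the untreated array. For the 7 inflammation-linked miRNAs it was the lowest for 6 on the MCT array and for 4 on the untreated array.

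With limits set by the dimmest miRNA spots instead, 230.5 on the MCT array and 108.7 on the untreated array, 575 miRNAs were detected on either array. miR-147-3p was then above the limit in 3 spots on each array, and miR-212-3p in 0 on each.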
